A study of Rattus norvegicus with 138 samples.

Results

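Injured tibialis anterior (TA) muscles that received an autologous minced muscle graft (MMG) were set against injured TA muscles left without repair (NoRepair), both taken at 7 days post injury (DPI) from rats that did not run. The members were 16 muscles of 16 rats, 8 in each arm, chosen by the injury, running, repair and day labels out of a series of 138 libraries. These muscles had 19 libraries. The 3 libraries with fewer than 7000 gene symbols above 1 TPM were dropped, which left 1 library for each muscle. The dropped libraries belonged to the non-repaired muscles of rats 012, 019 and 020, held 3178 to 3692 symbols above 1 TPM and had 79.6 to 82.2% of their TPM on ribosomal RNA symbols. TPM, a unit of transcript abundance, is the share of a library that falls on a gene, corrected for transcript length, so that levels of different genes can be set side by side.

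The series followed volumetric muscle loss (VML), a surgical defect too large to heal, in inbred male Lewis rats of about 4 months of age. In both arms a full-thickness punch was taken from the left TA. In the MMG arm the excised piece was minced and returned to the defect of the same rat, and in the NoRepair arm the defect was left empty. Contralateral TA muscles of the same arms, muscles of running rats and TA muscles of unoperated rats are used as background. The labels call the last of these Sham, whereas the paper's text calls its controls unoperated. RNA came from the whole muscle, so transcripts of the graft and of the host cannot be told apart, and neither can fewer cells of a type and less RNA per cell.

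In injured muscle, blood monocytes enter and become macrophages, which clear dead fibres and then express genes of scavenging, lipid handling and repair. Satellite cells, fibroblasts, endothelial cells and macrophages divide over the same days. A dividing cell first expresses genes that copy DNA and then a late set for chromosome condensation, the spindle and cytokinesis, many of them controlled through CCAAT boxes and the cell cycle genes homology region of their promoters. Fibroblasts deposit collagens and glycoproteins, enzymes crosslink the collagens, and proteases remodel them.

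One kept library stood apart from the rest. The NoRepair muscle of rat 011 had 16.7% of its TPM on ribosomal RNA symbols, against at most 1.31% in the other 15 muscles, and lay at -31.7 on the second principal component (12.2% of the variance), where the next lowest muscle lay at -7.49. The labels also give its 2 contralateral libraries different days, 3 and 7 DPI, and the first of these was not used. Without rat 011, 2691 genes were higher and 412 lower in MMG at an unadjusted p under 0.05, in place of 2605 and 21 with it. The kept libraries held 10477 to 10927 symbols above 1 TPM, with a mean of 10814 ± 101 (SD, n = 8) in MMG and 10697 ± 135 (SD, n = 8) in NoRepair muscles (two-sided exact permutation test, p = 0.0713). The rats carried numbers of 2 ranges, a lower one from 011 to 024 and a higher one with 3 digits, and 4 muscles of each arm were lower-numbered and 4 higher-numbered. On the first component (49.8% of the variance) the NoRepair muscles of rats 106, 125 and 126 lay lowest. The labels do not say what the ranges stand for, and values within each range are given beside the pooled ones. The labelled tissue was borne out by its markers, with Acta1, the skeletal muscle actin, at 11339 to 28858 TPM. Cd68, a macrophage marker, lay at 40.9 to 289 TPM against a mean of 0.985 TPM in 4 unoperated muscles, the left and right TA of 2 rats.

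Without regard to the range of rat numbers, few genes passed the test, and most differences pointed the same way. A gene was called when its Benjamini-Hochberg adjusted p in limma was under 0.05 and its log2 fold change, on the log2(TPM + 1) scale, was beyond 1 in either direction. Of 10803 genes tested, 1 was called (0.00926%), the cell adhesion molecule Cadm4, and 0 were called lower. By adjusted p alone 9 genes passed (0.0833%), all higher in MMG. At an unadjusted p under 0.05, 2605 genes were higher in MMG (24.1%) and 21 were lower. The log2 fold change was above 0 for 77.1% of all genes, with a median of 0.11. After division by median-of-ratios size factors the median was -0.0044, 49% of genes were above 0, and 1014 (9.39%) were higher and 388 lower at an unadjusted p under 0.05. With the rat-number range as a covariate 8 genes were called and 946 were higher and 6 lower by adjusted p, and with size factors as well 0 were called and 33 were higher and 2 lower by adjusted p. Values of gene groups are therefore set against the all-gene median of 0.11. Of the listed genes, 116 of 124 macrophage, 142 of 163 proliferation and 148 of 206 matrix genes were tested, the others having no entry used here or a mean at or below 1 TPM.

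The 9 genes that passed by adjusted p are given first, and values in parentheses after a gene are its log2 fold change ± SE and its adjusted p, followed by the adjusted p with the rat-number range as a covariate ("with range") and that after size factors alone. By size factors alone 6 of these 9 passed, and no other gene named here with its p did. With size factors and range together the 9 passed, and of the other genes named here Msr1, Smc2, Ccne1, Plod2 and Hmmr did. Cadm4 was picked by the rule for named genes, and the other 8 were chosen after their values were seen. Cadm4 was at 15.3, 23.6 and 39.8 TPM in MMG and at 7.47, 11 and 18.4 TPM in NoRepair muscles (lowest, median and highest). The ranges overlapped, and 6 of 8 MMG muscles lay above every NoRepair muscle. Its log2 fold change was 1.03 ± 0.19 (SE, n = 8 and 8, adjusted p = 0.0497, with range 0.0244, with size factors 0.0683, all in limma), with 0.85 in the lower-numbered rats and 1.21 in the higher-numbered rats. This call did not hold under size factors, where the log2 fold change was 0.91. With 1 muscle left out the log2 fold change was 0.92 to 1.13, and the adjusted p for Cadm4 ran from 0.0103 to 0.153 and was under 0.05 only without the NoRepair muscle of rat 020 or the MMG muscle of rat 108. Syt8, of the synaptotagmin family, was at 3.67, 4.75 and 6.68 TPM in MMG and at 1.68, 2.08 and 3.03 TPM in NoRepair muscles. Every MMG muscle was above every NoRepair muscle, and the log2 fold change was 0.90 ± 0.12 (adjusted p = 0.00973, with range 0.0103, with size factors 0.00613), with 0.85 in the lower-numbered rats and 0.94 in the higher-numbered rats. Heyl, a transcriptional repressor induced by Notch signalling, was at 14.9, 19.6 and 22.9 TPM in MMG and at 8.3, 11.1 and 14.7 TPM in NoRepair muscles. Its groups did not overlap either, and the log2 fold change was 0.75 ± 0.13 (adjusted p = 0.0365, with range 0.0244, with size factors 0.0395), with 0.57 in the lower-numbered rats and 0.92 in the higher-numbered rats.

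Gatm, the first enzyme of creatine synthesis, was at 49.3, 66.8 and 82.3 TPM in MMG and at 30.5, 39.8 and 52.1 TPM in NoRepair muscles (0.75 ± 0.13, adjusted p = 0.0365, with range 0.0244, with size factors 0.0395). Of the MMG muscles 7 lay above every NoRepair muscle. Kcnk13, a potassium channel, was at 5.62 to 11.5 TPM in MMG and 3.05 to 6.91 TPM in NoRepair muscles (0.83 ± 0.14, adjusted p = 0.0365, with range 0.0244, with size factors 0.0395). Hsf2bp, a partner of heat shock factor 2, was at 1.96 to 3.87 TPM in MMG and 1.08 to 2.21 TPM in NoRepair muscles (0.65 ± 0.11, adjusted p = 0.0365, with range 0.0244, with size factors 0.0576). Katnbl1, related to the microtubule-severing protein katanin, and Pkib, an inhibitor of protein kinase A, had arms that did not overlap. Katnbl1 was at 9.79 to 14.3 TPM in MMG and 6.07 to 9.35 TPM in NoRepair muscles (0.57 ± 0.095, adjusted p = 0.0365, with range 0.0244, with size factors 0.0168), and Pkib was at 6.64 to 9.58 TPM in MMG and 3.71 to 6.5 TPM in NoRepair muscles (0.55 ± 0.10, adjusted p = 0.0497, with range 0.0255, with size factors 0.0683). Cnksr3, a scaffold of kinase signalling, was at 5.99 to 7.84 TPM in MMG and 4.09 to 6.18 TPM in NoRepair muscles (0.44 ± 0.08, adjusted p = 0.0497, with range 0.0244, with size factors 0.0395). Over all tested genes, every MMG muscle lay above every NoRepair muscle for 11 genes (0.102%) and below it for 0 (0%).

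**Figure D1:**
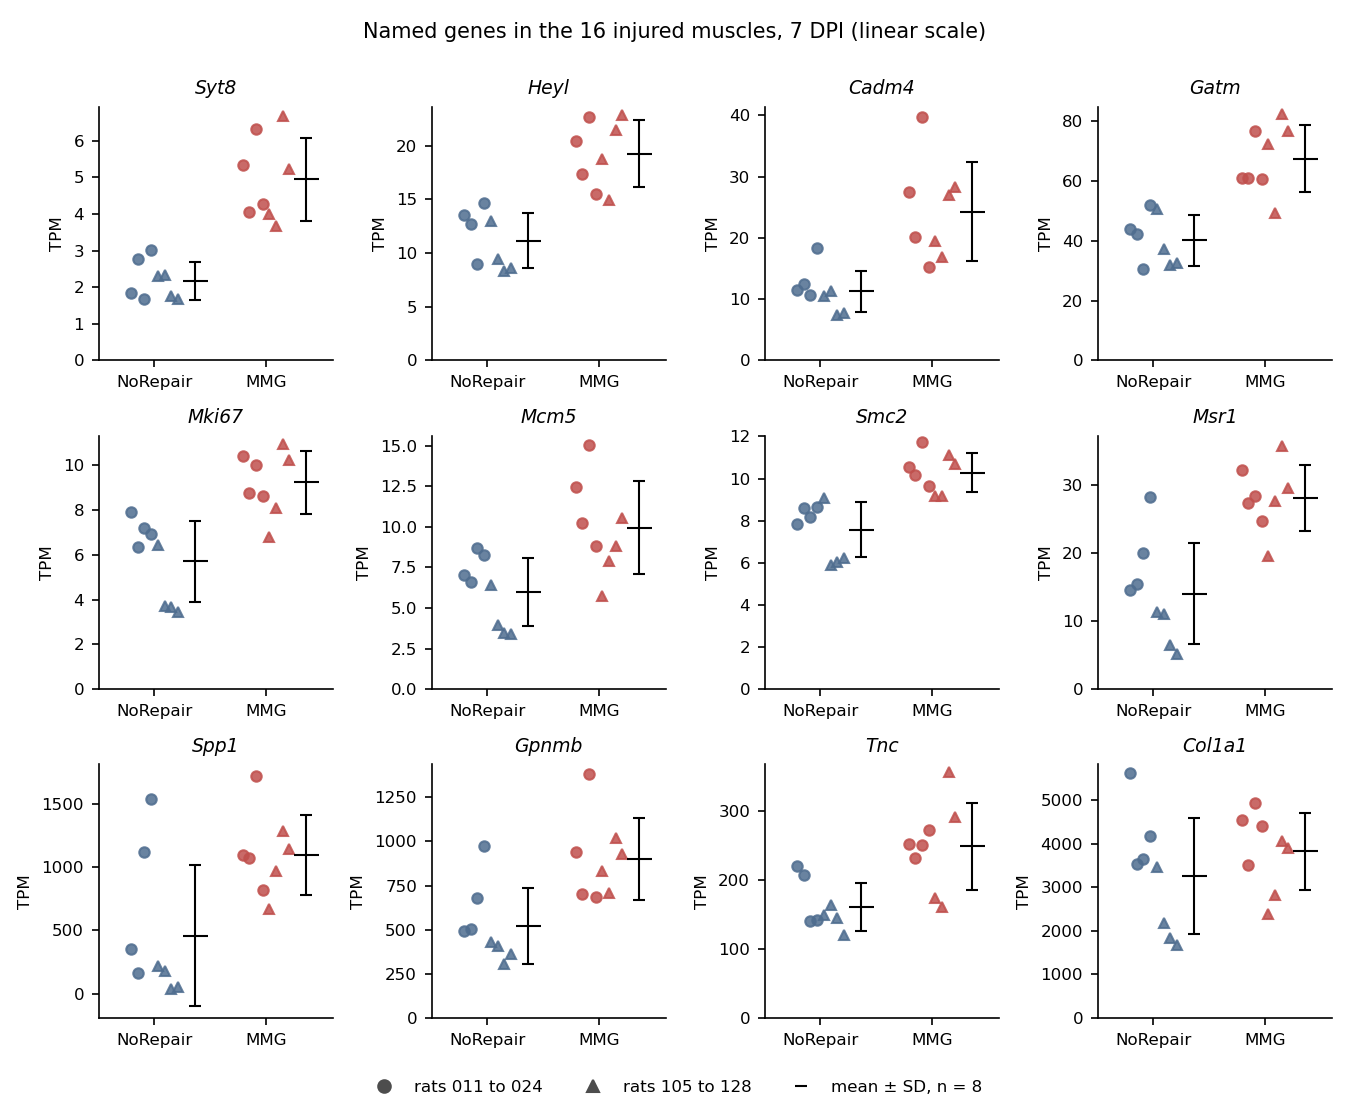
TPM on a linear axis in each injured muscle at 7 DPI for 12 genes, NoRepair in blue and MMG in red, with circles for the lower-numbered rats, triangles for the higher-numbered rats, and bars for the mean ± SD of 8 muscles. The arms are apart for Syt8, Heyl and Smc2 and overlap for the other 9 genes, widely so for Col1a1.

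All 70 mitosis genes tested had a log2 fold change above 0 (69 of 70 under size factors), and for that reason the promoters of 4 reference genes of the cell cycle are shown. The sequences are the 250 bases before the transcription start from RefSeq (GRCr8), 5' to 3' on the strand of the gene, in lower case, with CCAAT and TTTGAA and their reverse complements ATTGG and TTCAAA in capitals. CCAAT is the box bound by the factor NF-Y, and TTTGAA is the core of the cell cycle genes homology region. In Mki67 a match of each kind overlaps and forms 1 run of capitals. The submitters' processing used build 6.0, so these coordinates are not those of the deposited values.
Ccnb1, chr2:33655226-33655475, minus strand: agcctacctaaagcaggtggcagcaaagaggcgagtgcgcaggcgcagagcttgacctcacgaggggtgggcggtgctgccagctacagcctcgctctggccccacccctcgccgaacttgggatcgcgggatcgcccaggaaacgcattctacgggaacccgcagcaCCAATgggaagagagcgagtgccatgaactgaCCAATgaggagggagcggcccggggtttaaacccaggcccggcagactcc
Top2a, chr10:84473094-84473343, minus strand: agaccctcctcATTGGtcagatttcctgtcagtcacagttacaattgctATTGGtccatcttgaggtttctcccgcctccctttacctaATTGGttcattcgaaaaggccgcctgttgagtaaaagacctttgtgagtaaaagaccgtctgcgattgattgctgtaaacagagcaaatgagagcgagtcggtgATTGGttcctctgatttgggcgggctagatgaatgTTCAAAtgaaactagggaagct
Mki67, chr1:199952594-199952843, minus strand: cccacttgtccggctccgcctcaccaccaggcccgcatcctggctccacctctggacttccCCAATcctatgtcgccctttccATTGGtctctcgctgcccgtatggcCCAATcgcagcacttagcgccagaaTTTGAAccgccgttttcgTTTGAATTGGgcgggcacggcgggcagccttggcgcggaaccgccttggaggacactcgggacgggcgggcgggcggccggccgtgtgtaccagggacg
Mcm5, chr19:13488563-13488812, plus strand: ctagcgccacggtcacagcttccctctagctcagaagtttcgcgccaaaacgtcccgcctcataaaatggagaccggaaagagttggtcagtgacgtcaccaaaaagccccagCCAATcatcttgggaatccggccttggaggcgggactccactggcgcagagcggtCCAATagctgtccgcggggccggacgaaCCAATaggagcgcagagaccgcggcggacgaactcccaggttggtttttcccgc

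Of the 70 mitosis genes tested, 62 had a promoter entry, 42 of which (67.7%) held CCAAT and 31 (50%) held TTTGAA on either strand. Of 38 DNA replication genes with an entry, 20 (52.6%) held CCAAT and 2 (5.26%) held TTTGAA, and of 18 macrophage markers 7 (38.9%) and 5 (27.8%) did. Over all 33469 promoters of this length the shares were 34% and 16.2%. These are matches of letters and not sites shown to be bound.

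All 70 mitosis genes tested had a log2 fold change above 0, and 67 of them had an unadjusted p under 0.05, against 24.1% of all genes, with a list median of 0.53. By adjusted p 0 of them passed in the pooled comparison. Their mean log2(TPM + 1) was 2.71, 3.20 and 3.69 in MMG muscles and 2.16, 2.86 and 3.06 in NoRepair muscles, and the lowest NoRepair muscles were those of rats 106, 125 and 126. After size factors 60 of 70 had an unadjusted p under 0.05, against 9.39% of all genes, and the median was 0.41. With the rat-number range as a covariate 64 of 70 passed by adjusted p, against 8.76% of all genes in that model, and with size factors as well 3 passed.

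Mki67, a marker of cycling cells that coats mitotic chromosomes, was at 6.79, 9.38 and 10.9 TPM in MMG and at 3.44, 6.39 and 7.92 TPM in NoRepair muscles, against a mean of 0.133 TPM in unoperated muscle. Of the MMG muscles 7 lay above every NoRepair muscle. Its log2 fold change was 0.65 ± 0.15 (adjusted p = 0.0937, with range 0.0292, with size factors 0.18), with 0.37 in the lower-numbered rats and 0.93 in the higher-numbered rats. Top2a, the topoisomerase that untangles chromosomes, was at 6.94, 11.3 and 13.8 TPM in MMG and at 4.2, 7.99 and 9.01 TPM in NoRepair muscles (0.58 ± 0.17, adjusted p = 0.117, with range 0.0314, with size factors 0.273). Ccnb1, the cyclin of mitotic entry, was at 6.39, 9.04 and 14.5 TPM in MMG and at 3.69, 6.71 and 8.6 TPM in NoRepair muscles (0.56 ± 0.17, adjusted p = 0.117, with range 0.0311, with size factors 0.287). For Top2a and Ccnb1 alike 6 MMG muscles were above every NoRepair muscle. Smc2, a condensin subunit, was at 9.16, 10.4 and 11.8 TPM in MMG and at 5.88, 8.02 and 9.08 TPM in NoRepair muscles (0.41 ± 0.092, adjusted p = 0.0861, with range 0.0294, with size factors 0.143), and among the tested members of the macrophage, proliferation and matrix lists it alone had arms that did not overlap.

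DNA replication genes differed less than mitosis genes, with a median of 0.32. Of 46 tested, 45 were above 0 and 40 had an unadjusted p under 0.05, against 24.1% of all genes, and after size factors 29 did, against 9.39%, with a median of 0.23. With the rat-number range as a covariate 29 passed by adjusted p, against 8.76% of all genes, and with size factors as well 2 passed. Mcm5, a subunit of the replicative helicase, was at 5.73, 9.54 and 15.1 TPM in MMG and at 3.43, 6.52 and 8.7 TPM in NoRepair muscles (0.67 ± 0.20, adjusted p = 0.117, with range 0.0294, with size factors 0.275). Ccne1, the cyclin that starts DNA synthesis, was at 4, 5.39 and 7.52 TPM in MMG and at 2.37, 3.65 and 4.5 TPM in NoRepair muscles (0.51 ± 0.12, adjusted p = 0.0861, with range 0.0292, with size factors 0.143), with 7 MMG muscles above every NoRepair muscle. G1 cyclins, their kinases and inhibitors had 20 of 26 above 0, the share of all genes being 77.1%, and 11 at an unadjusted p under 0.05, against 24.1% of all genes. After size factors 15 were above 0, against 49% of all genes. Cdkn1a, the inhibitor p21, was at 405, 464 and 798 TPM in MMG and at 243, 541 and 691 TPM in NoRepair muscles (-0.018 ± 0.19, adjusted p = 0.96, with range 0.952, with size factors 0.653), and its arms overlapped over most of their ranges.

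**Figure D2:**
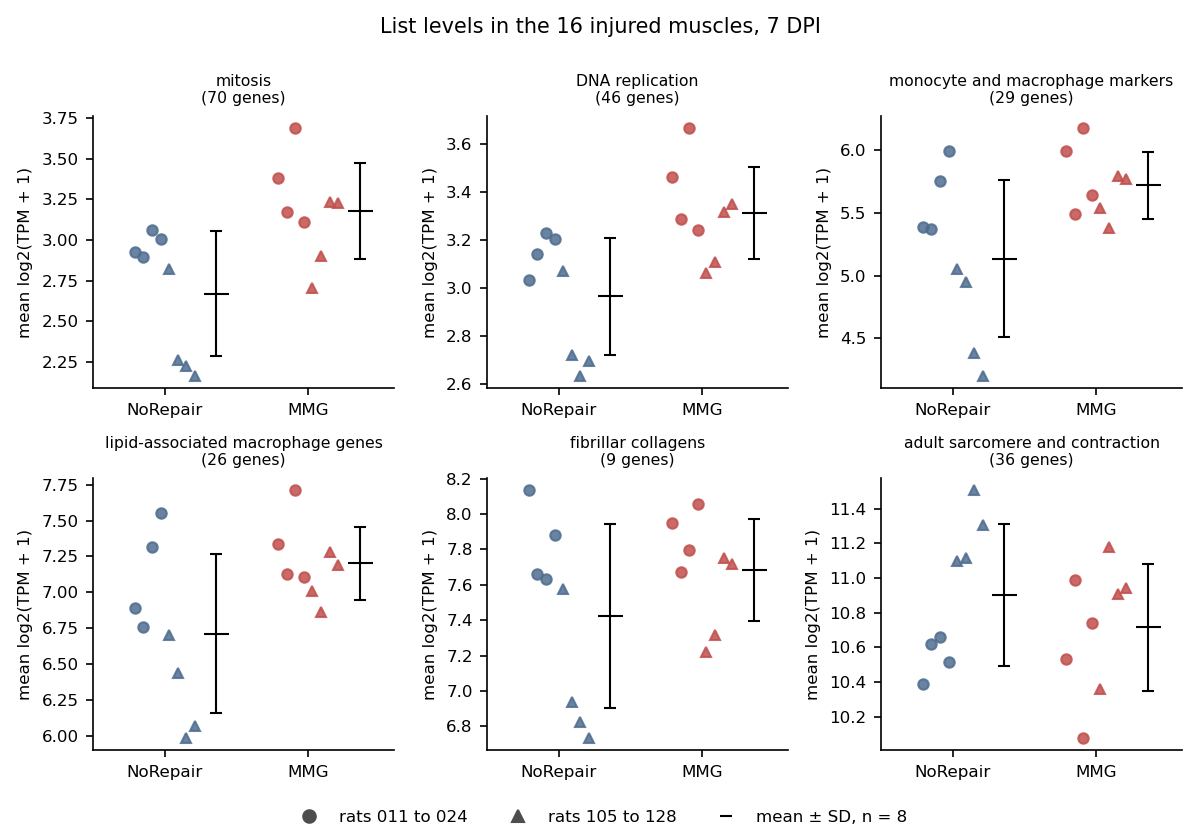
Mean log2(TPM + 1) over the tested genes of 6 lists in each injured muscle at 7 DPI, NoRepair in blue and MMG in red, with circles for the lower-numbered rats, triangles for the higher-numbered rats, and bars for the mean ± SD of 8 muscles. Mitosis levels run from 2.71 to 3.69 in MMG and from 2.16 to 3.06 in NoRepair muscles, where the lowest 3 triangles are rats 106, 125 and 126.

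The mitosis difference was present in both ranges of rat numbers. In the lower-numbered rats (4 against 4 muscles) 69 of 70 genes were above 0 and 55 had an unadjusted p under 0.05, against 3.11% of all genes, with a median of 0.35 beside 0.054 for all genes. No gene passed by adjusted p in that range. In the higher-numbered rats (4 against 4) 70 were above 0 and 67 had an unadjusted p under 0.05, against 35.5% of all genes, with a median of 0.67 beside 0.17. By adjusted p 47 of them passed, against 13.7% of all genes. DNA replication genes had medians of 0.23 and 0.40 in the lower and the higher range. The interaction of repair with range passed for 0 genes by adjusted p in limma. At an unadjusted p under 0.05 it was larger in the higher-numbered rats for 2 of 70 mitosis genes and 0 of 46 DNA replication genes, against 9.59% of all genes.

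Macrophage markers had higher means in MMG muscles, and their median difference was larger in the higher-numbered rats. Of 29 monocyte and macrophage markers tested, 29 were above 0 and 20 had an unadjusted p under 0.05, against 24.1% of all genes, with a median of 0.58. After size factors the median was 0.46 and 16 had an unadjusted p under 0.05, against 9.39% of all genes. By adjusted p 0 passed. With the rat-number range as a covariate 13 did, against 8.76% of all genes, and with size factors as well 1 did. Their summed level was 3324, 4169.8 and 6889 TPM in MMG and 1204, 2917 and 5123 TPM in NoRepair muscles. The NoRepair muscles of the higher-numbered rats, at 1204 to 2598 TPM, lay below every MMG muscle, and in the lower-numbered rats, at 3236 to 5123 TPM, the NoRepair muscles of rats 011 and 012 lay just below the lowest MMG muscle and those of rats 019 and 020 lay within the MMG range. In the higher-numbered rats, 13 of 29 markers were called with the fold limit, against 1.17% of all genes, and the median was 0.93. In the lower-numbered rats the median was 0.19 and 2 markers had an unadjusted p under 0.05, against 3.11% of all genes. The interaction with range had an unadjusted p under 0.05 for 19 of 29 markers, all larger in the higher-numbered rats, against 9.59% of all genes, and passed for 0 by adjusted p.

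Msr1, a scavenger receptor for modified lipoproteins, was at 19.6, 28.1 and 35.8 TPM in MMG and at 5.17, 13.1 and 28.4 TPM in NoRepair muscles, and 4 MMG muscles lay above every NoRepair muscle. Its log2 fold change was 1.09 ± 0.25 (adjusted p = 0.0861, with range 0.0275, with size factors 0.159), with 0.54 in the lower-numbered rats and 1.65 in the higher-numbered rats. C3ar1, the receptor of the complement fragment C3a, was at 9.97, 13.2 and 18.1 TPM in MMG and at 3.46, 7.47 and 12.9 TPM in NoRepair muscles (0.89 ± 0.20, adjusted p = 0.0861, with range 0.0298, with size factors 0.144). Cd68, a lysosomal protein of macrophages, was at 127, 164 and 289 TPM in MMG and at 40.9, 93.5 and 196 TPM in NoRepair muscles. All MMG muscles were above the NoRepair median and 1 was above every NoRepair muscle (0.88 ± 0.27, adjusted p = 0.12, with range 0.0341, with size factors 0.286). Csf1r, the receptor that macrophages need to survive, was at 71, 90.5 and 122 TPM in MMG and at 32.6, 65.6 and 101 TPM in NoRepair muscles (0.55 ± 0.20, adjusted p = 0.144, with range 0.0465, with size factors 0.369). Of the scavenger and alternatively activated genes 19 of 20 were above 0 and 11 had an unadjusted p under 0.05, against 77.1% and 24.1% of all genes, with a median of 0.38.

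Among the scavenger genes, F13a1, the catalytic subunit of coagulation factor XIII, was at 14.5, 25.1 and 33.1 TPM in MMG and at 9.99, 12.8 and 21 TPM in NoRepair muscles, and 6 MMG muscles were above every NoRepair muscle. The log2 fold change was 0.79 ± 0.16 (adjusted p = 0.0792, with range 0.0298, with size factors 0.187), with 0.72 in the lower-numbered rats and 0.86 in the higher-numbered rats. Mrc1, the mannose receptor, was at 32.7, 44.5 and 56.9 TPM in MMG and at 15.5, 28.9 and 47.1 TPM in NoRepair muscles (0.65 ± 0.19, adjusted p = 0.117, with range 0.0295, with size factors 0.271). Cd163, the receptor for haemoglobin bound to haptoglobin, was at 12.6, 16.4 and 21.5 TPM in MMG and at 7.56, 12.5 and 18.7 TPM in NoRepair muscles (0.42 ± 0.15, adjusted p = 0.14, with range 0.0341, with size factors 0.378). The arms overlapped for each of these 3 genes.

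Lipid-associated macrophage genes had a median of 0.44 and, after size factors, 0.32. Of 26 tested, 25 were above 0 and 13 had an unadjusted p under 0.05, against 77.1% and 24.1% of all genes. Spp1, osteopontin, had the largest log2 fold change among the macrophage lists, 2.22 ± 0.62 (adjusted p = 0.116, with range 0.0317, with size factors 0.237). It was at 664, 1086 and 1719 TPM in MMG and at 36.4, 197 and 1535 TPM in NoRepair muscles. The NoRepair muscles of rats 019 and 020 held 1118 and 1535 TPM, within the MMG range, and the other 6 held 36.4 to 349 TPM, below every MMG muscle. Within the ranges the log2 fold change was 1.02 in the lower-numbered rats and 3.42 in the higher-numbered rats. Gpnmb, a glycoprotein of phagocytes with high lysosomal load, was at 686, 880.5 and 1382 TPM in MMG and at 307, 462 and 975 TPM in NoRepair muscles (0.85 ± 0.21, adjusted p = 0.0988, with range 0.0311, with size factors 0.18), with 0.48 in the lower-numbered rats and 1.21 in the higher-numbered rats.

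Inflammatory mediators differed less. Of 28 tested 24 were above 0, against 77.1% of all genes, and 5 had an unadjusted p under 0.05, a smaller share than the 24.1% of all genes, with a median of 0.27, which was -0.028 in the lower-numbered rats and 0.61 in the higher-numbered rats. Il1b, interleukin 1 beta, was at 4.46, 6.79 and 9.44 TPM in MMG and at 4.37, 6.04 and 12.7 TPM in NoRepair muscles (0.029 ± 0.20, adjusted p = 0.935, with range 0.909, with size factors 0.81). Ccl2, the chemokine that draws monocytes, was at 39.8, 61 and 102 TPM in MMG and at 13, 50.02 and 126 TPM in NoRepair muscles (0.46 ± 0.35, adjusted p = 0.409, with range 0.204, with size factors 0.578). Neither showed a separation of the arms. Of 13 MHC class II genes, which present antigen, 7 were above 0, a smaller share than the 77.1% of all genes, with a median of 0.0099 and, after size factors, -0.12. T and natural killer cell genes had a median of -0.04 over 18 genes. The 4 neutrophil genes tested had summed levels of 39.3 to 119 TPM in MMG and 30.8 to 75 TPM in NoRepair muscles. The 3 B and plasma cell genes tested had 4.14 to 7.69 TPM in MMG and 3.17 to 7.03 TPM in NoRepair muscles, and 5 others had a mean at or below 1 TPM.

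**Figure D3:**
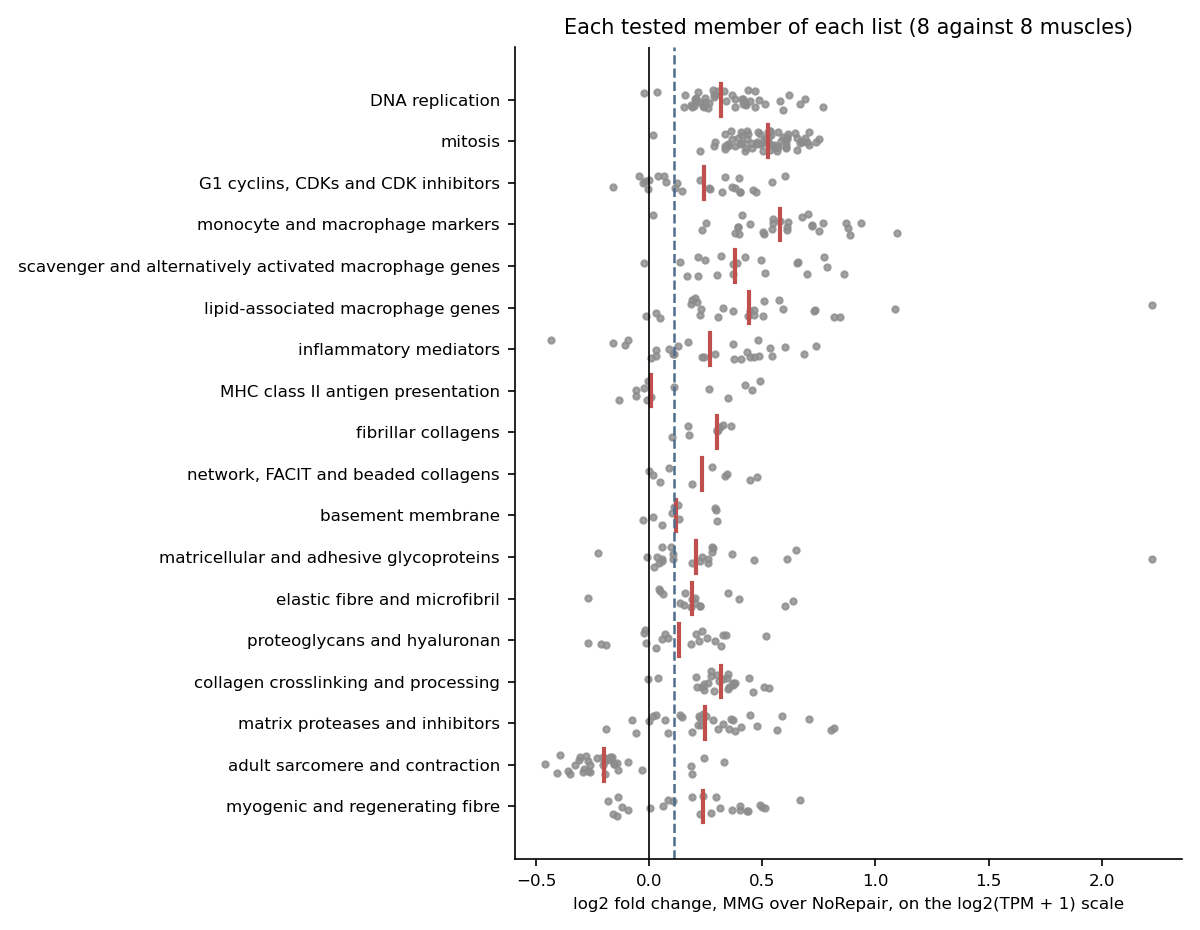
Log2 fold change of MMG over NoRepair for each tested member of each list (points), with the list median in red and the median of all 10803 tested genes, 0.11, as a dashed blue line. All mitosis members lie above 0, and the point at 2.22 is Spp1.

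Matrix genes differed least of the 3 themes. Of 148 tested 133 were above 0 and 25 had an unadjusted p under 0.05, a smaller share than the 24.1% of all genes, with a median of 0.23 and, after size factors, 0.11. Of 9 fibrillar collagens 9 were above 0 and 1 had an unadjusted p under 0.05, against 77.1% and 24.1% of all genes, with a median of 0.30, which was 0.05 in the lower-numbered rats and 0.54 in the higher-numbered rats. Col1a1, of type I collagen, was at 2391, 3976 and 4933 TPM in MMG and at 1669, 3494 and 5618 TPM in NoRepair muscles (0.30 ± 0.23, adjusted p = 0.419, with range 0.223, with size factors 0.659). Col3a1, of type III collagen, was at 2880.2, 4392 and 5144 TPM in MMG and at 2268, 4114 and 5794 TPM in NoRepair muscles (0.17 ± 0.18, adjusted p = 0.556, with range 0.389, with size factors 0.888). For both the NoRepair muscles spanned the whole MMG range. Col4a1, of basement membrane collagen, was at 176, 238 and 312 TPM in MMG and at 134, 202 and 257 TPM in NoRepair muscles (0.30 ± 0.16, adjusted p = 0.25, with range 0.138, with size factors 0.5).

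Plod2, the lysyl hydroxylase that prepares collagen for crosslinking, was at 60.5, 74.3 and 86.6 TPM in MMG and at 40.8, 50.7 and 68.9 TPM in NoRepair muscles, and 5 MMG muscles lay above every NoRepair muscle. Its log2 fold change was 0.53 ± 0.12 (adjusted p = 0.0861, with range 0.0255, with size factors 0.143), with 0.30 in the lower-numbered rats and 0.75 in the higher-numbered rats. Tnc, tenascin C of provisional matrix, was at 161, 251 and 356 TPM in MMG and at 121, 147 and 221 TPM in NoRepair muscles, with 6 MMG muscles above every NoRepair muscle. The log2 fold change was 0.61 ± 0.16 (adjusted p = 0.106, with range 0.033, with size factors 0.271), with 0.53 in the lower-numbered rats and 0.69 in the higher-numbered rats. Hmmr, a hyaluronan receptor that also acts at the spindle, had means of 7.13 ± 1.33 TPM in MMG and 4.74 ± 1.2 TPM in NoRepair muscles (SD, n = 8) (0.52 ± 0.13, adjusted p = 0.106, with range 0.0265, with size factors 0.231). With the rat-number range as a covariate 13 of 148 matrix genes passed by adjusted p, against 8.76% of all genes, and Plod2, Tnc and Hmmr were among them.

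The other matrix reference genes overlapped between the arms. Lox, lysyl oxidase, had medians of 84.8 TPM in MMG and 67.9 TPM in NoRepair muscles (0.46 ± 0.20, adjusted p = 0.183, with range 0.058, with size factors 0.413), and Timp1, an inhibitor of metalloproteinases, had medians of 254 TPM in MMG and 231 TPM in NoRepair muscles (0.45 ± 0.35, adjusted p = 0.416, with range 0.157, with size factors 0.594). Fn1, fibronectin, had medians of 595 TPM in MMG and 511 TPM in NoRepair muscles (0.28 ± 0.22, adjusted p = 0.432, with range 0.217, with size factors 0.69). Postn, periostin, had medians of 1504 TPM in MMG and 1206 TPM in NoRepair muscles (0.19 ± 0.19, adjusted p = 0.537, with range 0.427, with size factors 0.855). None of these passed by adjusted p. Eln, elastin, had medians of 81.5 TPM in MMG and 68.1 TPM in NoRepair muscles (0.19 ± 0.17, adjusted p = 0.484, with range 0.326, with size factors 0.842). Mmp2, a gelatinase, had medians of 499 TPM in MMG and 505 TPM in NoRepair muscles (0.082 ± 0.21, adjusted p = 0.819, with range 0.693, with size factors 0.899). By list, 8 of 26 crosslinking and 7 of 32 protease genes had an unadjusted p under 0.05, against 24.1% of all genes, with medians of 0.32 and 0.25. The medians were 0.23 for network collagens, 0.12 for basement membrane, 0.21 for matricellular proteins, 0.19 for elastic fibres and 0.13 for proteoglycans, and after size factors 0.11, -0.0044, 0.078, 0.064 and 0.031.

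The study also named short groups of genes from these samples, whose direction is therefore not independent evidence. Of 6 genes that it names as negative regulators or inhibitors of myogenesis, 4 had an unadjusted p under 0.05, against 24.1% of all genes. Id3 is named only in the study's discussion, whose list also holds TGF-beta and SMAD proteins, not counted among these 6. Snai1, a repressor that holds back muscle differentiation, was at 26.9, 35.2 and 70.7 TPM in MMG and at 15, 23.2 and 32.2 TPM in NoRepair muscles (0.67 ± 0.19, adjusted p = 0.117, with range 0.0311, with size factors 0.273), and 6 MMG muscles were above every NoRepair muscle. Msc, musculin, had medians of 23.9 TPM in MMG and 14.1 TPM in NoRepair muscles (0.66 ± 0.19, adjusted p = 0.117, with range 0.0341, with size factors 0.267). Id2 (0.32 ± 0.15, adjusted p = 0.204, with range 0.0473, with size factors 0.447) and Id3 (0.50 ± 0.16, adjusted p = 0.12, with range 0.0303, with size factors 0.313) block MyoD-type factors. Mstn, myostatin, and Bmp1, a procollagen protease, had log2 fold changes of -0.23 ± 0.20 and 0.29 ± 0.16. Of its 5 fibrosis genes 2 had an unadjusted p under 0.05, against the same 24.1%. Tgfb1, the growth factor TGF-beta 1, had medians of 72 TPM in MMG and 59 TPM in NoRepair muscles (0.39 ± 0.15, adjusted p = 0.15, with range 0.0675, with size factors 0.383), and Pdgfra, of fibroadipogenic progenitors, had medians of 34.8 TPM in MMG and 26.8 TPM in NoRepair muscles (0.35 ± 0.14, adjusted p = 0.159, with range 0.0607, with size factors 0.411). Pdpn, podoplanin, had a log2 fold change of 0.28 ± 0.17.

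Of its 5 myogenic genes tested, 2 had an unadjusted p under 0.05, against 24.1% of all genes. Myh3, the embryonic myosin of new fibres, was at 167, 251 and 359 TPM in MMG and at 104.6, 189 and 217 TPM in NoRepair muscles (0.51 ± 0.17, adjusted p = 0.127, with range 0.0561, with size factors 0.362), with 6 MMG muscles above every NoRepair muscle. Pax7, of satellite cells, had medians of 5.23 TPM in MMG and 4.01 TPM in NoRepair muscles (0.40 ± 0.18, adjusted p = 0.192, with range 0.115, with size factors 0.422). Tmem8c, which codes for the fusion protein myomaker, had medians of 115 TPM in MMG and 106 TPM in NoRepair muscles (0.32 ± 0.15, adjusted p = 0.214, with range 0.106, with size factors 0.489). Myog and Myf6, factors of later differentiation, had log2 fold changes of 0.19 ± 0.21 and -0.10 ± 0.23. Over 25 genes of myogenesis and regenerating fibres the median was 0.24, with 10 at an unadjusted p under 0.05, against the same 24.1%.

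Adult fibre transcripts mostly had lower means in MMG muscles over all 16 muscles. Of 36 genes of the adult sarcomere and contraction 4 were above 0, against 77.1% of all genes, 0 had an unadjusted p under 0.05 in limma, and the median was -0.20. Their summed level was 104153, 155719 and 203753 TPM in MMG and 126870, 173602 and 256695 TPM in NoRepair muscles. In the lower-numbered rats the medians of the arms were close, at 104153, 144834 and 181290 TPM in MMG and 126870, 144603 and 166767 TPM in NoRepair muscles, with 16 genes above 0 and a median of -0.021. In the higher-numbered rats the levels were 151003, 155719 and 203753 TPM in MMG and 180437, 204877 and 256695 TPM in NoRepair muscles, with 4 genes above 0 and a median of -0.37. TPM values of a library share a fixed total, and the part of these transcripts in the other results was not tested. The fibroblast list had a median of 0.24 over 14 genes, the endothelial list 0.13 over 16 and the Schwann cell list 0.10 over 9.

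**Figure D4:**
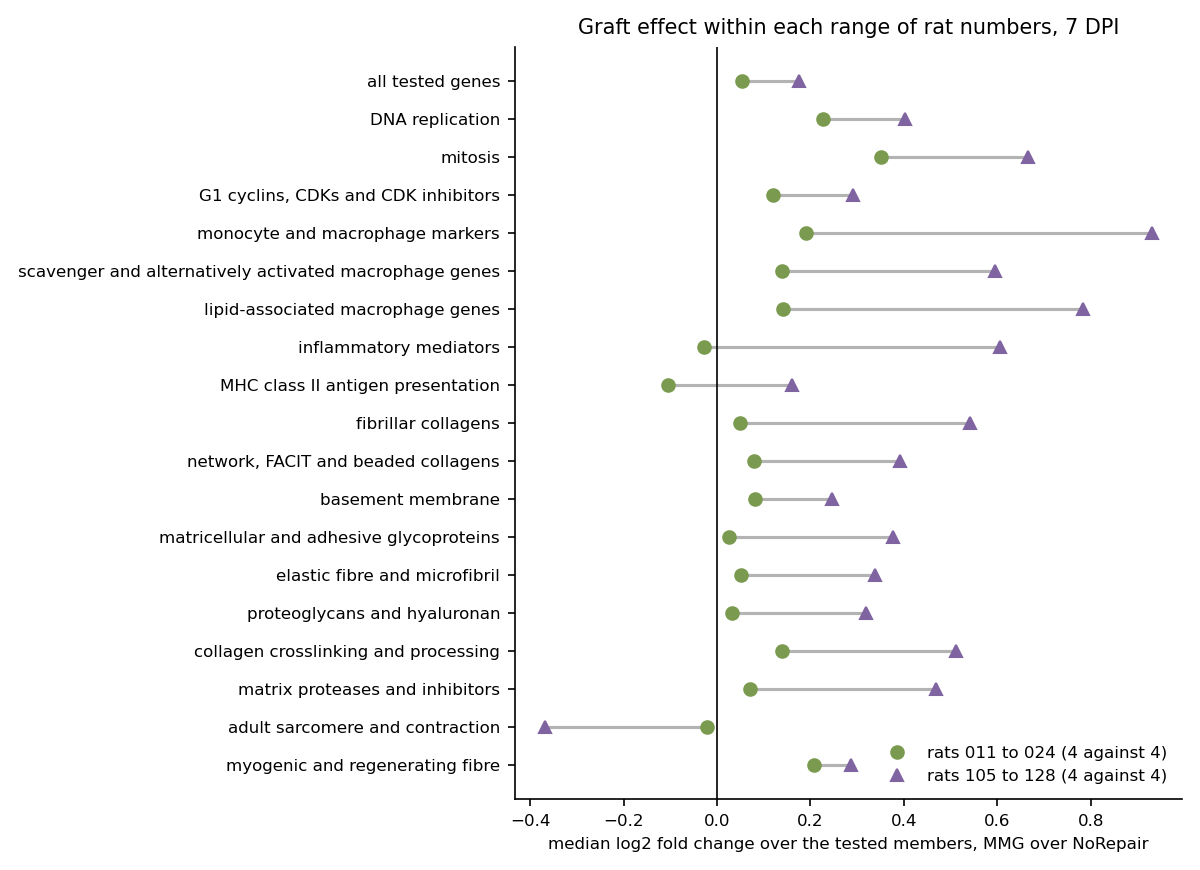
Median log2 fold change of MMG over NoRepair for each list within the lower-numbered rats and within the higher-numbered rats, with 4 against 4 muscles in each. The mitosis medians are 0.35 and 0.67, and the medians of macrophage markers are 0.19 and 0.93.

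The number of genes past the adjusted p depended on single muscles. Leaving out each muscle in turn gave 1 to 1021 genes. Without the NoRepair muscle of rat 020, 1021 of 10796 genes passed, of which 37 were macrophage, 66 proliferation and 11 matrix genes. The main comparison tested 116, 142 and 148 genes of these themes, and the matrix share was below that of all genes. Without the MMG muscle of rat 108, 47 passed, without that of rat 107, 3, without the NoRepair muscle of rat 011 or 019, 2 each, and without any other, 1. Over the same omissions the list medians were 0.44 to 0.59 for mitosis, 0.28 to 0.35 for DNA replication, 0.46 to 0.73 for macrophage markers and 0.20 to 0.40 for fibrillar collagens. They were 0.10 to 0.31 for network collagens, 0.078 to 0.15 for basement membrane and 0.11 to 0.28 for matricellular proteins. For elastic fibres they were 0.11 to 0.28, and for proteoglycans 0.043 to 0.21.

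In the contralateral TA, which was neither injured nor grafted, most genes also had higher means in the MMG arm. The filter left 6 MMG and 4 NoRepair muscles, the latter all of the higher-numbered rats. By adjusted p in limma 0 of 9151 genes passed, while 25.9% were higher in the MMG arm at an unadjusted p under 0.05, 88.5% were above 0 and the all-gene median was 0.19. Of the lists, 6 of 19 mitosis genes and 1 of 20 macrophage markers had an unadjusted p under 0.05, with medians of 0.21 and 0.14, and 6 fibrillar collagens had a median of 0.43. Of the 6 MMG rats 2 were lower-numbered, and 0 NoRepair rats were. In the higher-numbered rats alone (4 against 4), an alternative chosen after seeing the data, 8.15% of all genes were higher at an unadjusted p under 0.05, with 2 of 18 mitosis genes and 2 of 19 macrophage markers, and the all-gene median was 0.18.

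When the contralateral muscle of the same rat was subtracted on the log2 scale (6 MMG and 4 NoRepair rats), 23 of 29 macrophage markers, 43 of 70 mitosis genes and 17 of 46 DNA replication genes passed by adjusted p, against 7.41% of all genes. Their medians were 0.99, 0.63 and 0.38, and 389 genes passed as lower. Within the higher-numbered rats alone (4 against 4) 8 markers, 0 mitosis genes and 0 DNA replication genes passed in limma, against 0.759% of all genes. At an unadjusted p under 0.05, 24, 54 and 18 of them were higher, against 12.1% of all genes, and 2 of 9 fibrillar collagens were, with a median of 0.016.

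In running rats at 7 DPI (4 against 4 muscles) 1 of 10833 genes was called, the microRNA gene Mir3084c, named after its value was seen. It was listed at 0 in the NoRepair muscles and at a mean of 2.17 TPM in the MMG muscles. Of all genes 79.4% were above 0, and 3.1% were higher in MMG at an unadjusted p under 0.05, with 336 higher and 46 lower. After size factors 70 (0.647%) of the 198 genes at that p were higher and the others, the larger number, were lower, with an all-gene median of 0.011 and a mitosis median of 0.22. Of 70 mitosis genes 69 were above 0 and 1 had an unadjusted p under 0.05, with a median of 0.31 beside 0.11 over all genes. Macrophage markers had a median of 0.13, and fibrillar collagens had -0.10, so that 2 of 9 were above 0. The running rats of both arms all had numbers below the higher range, while the non-running muscles came from both ranges. Running therefore cannot be told apart from range in the comparison of running with non-running rats. The interaction of repair with running passed for 0 genes by adjusted p in limma. At an unadjusted p under 0.05 it was larger in non-running rats for 38 genes and smaller for 68, among them 0 of 70 mitosis genes and 0 of 29 macrophage markers.

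On other days the same contrast was made with 7 MMG and 3 NoRepair muscles at 3 DPI and with 4 of each at 14 and 28 DPI. Rat numbers differed with the day, so day cannot be told apart from rat number here or in the differences between days. At 3 DPI the NoRepair rats all had low numbers, while some MMG rats had higher ones. At 3 and 28 DPI 0 genes passed by adjusted p in limma. At 3 DPI 60 of 70 mitosis genes had an unadjusted p under 0.05, against 17.1% of all genes, with a median of 0.46 beside 0.15 over all genes. Mki67 levels were higher on that day, with means of 29.1 TPM in MMG and 18.2 TPM in NoRepair muscles. By 14 DPI the mitosis median was 0.15 beside 0.13, and by 28 DPI it was 0.15 beside 0.077. At 14 DPI 1 gene was called, Myh8, the perinatal myosin, with means of 205 TPM in MMG and 64.2 TPM in NoRepair muscles (1.66 ± 0.16, adjusted p = 0.0118 in limma), and it is named after its value was seen. At 7 DPI its means were 173 and 164 TPM. For macrophage markers the medians at these 3 days were 0.29, 0.16 and 0.24. The differences between days were tested in a single model of 8 groups. By adjusted p in limma 1 gene passed for 7 minus 3 DPI, Hsf2bp, and 0 passed for 7 minus 14 or 28 DPI. At an unadjusted p under 0.05, 182 of 10702 tested genes were larger at 7 DPI and 149 smaller for 7 minus 3 DPI. For 7 minus 14 DPI, 95 of 10702 were larger and 44 smaller, with 6 of 70 mitosis genes among the former. For 7 minus 28 DPI the counts were 173 and 44 of 10702.

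**Figure D5:**
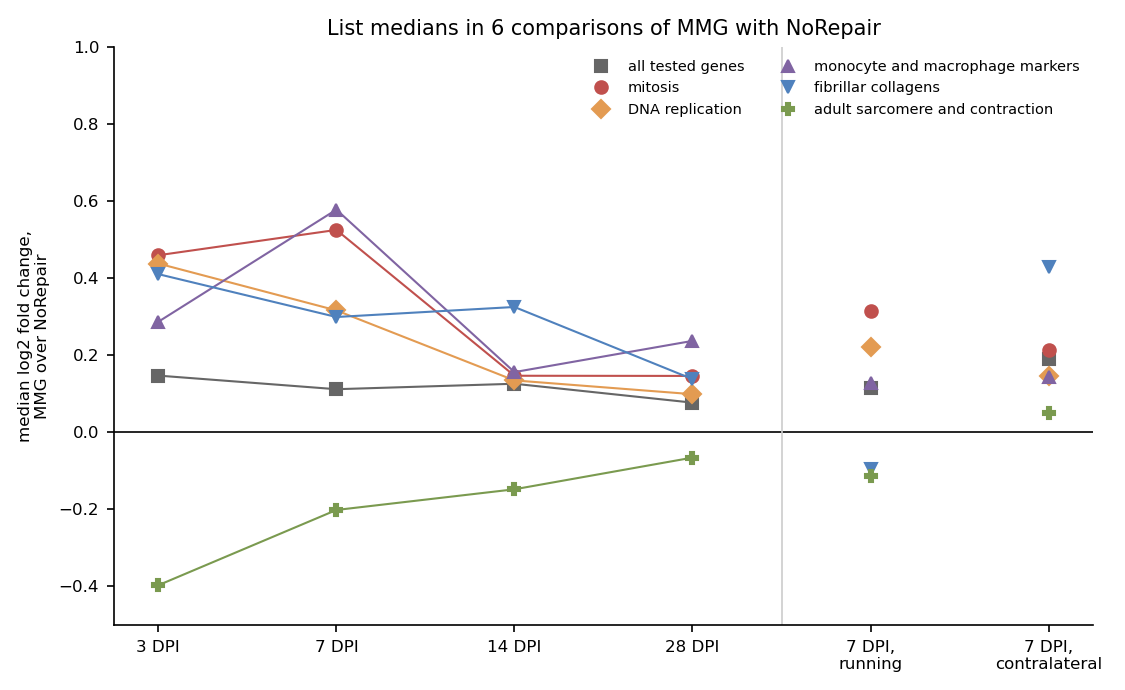
Median log2 fold change of MMG over NoRepair for the lists and for all tested genes on 4 days in non-running rats (3, 7, 14 and 28 DPI), in running rats at 7 DPI and in the contralateral muscle at 7 DPI. The mitosis median is 0.46 on the earliest day, 3 DPI, then 0.53 at 7 DPI, and it is 0.31 in running rats.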

How the data were processed

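Whole TA muscles were sequenced as paired-end TruSeq libraries. Per the paper's methods, the authors pseudo-aligned the reads to rat genome build 6.0 with Kallisto and tested gene counts with DESeq2, and they deposited the TPM table used here. Versions are not given in the sources used here. TPM keeps no read count. The paper states only an average depth over libraries and a minimum read depth for the samples that it kept. The depth of single libraries is therefore unknown, and no counting intervals were made. The 1 incomplete row of the table was left out, which left 16181 symbols ending at Tubb3, and 9 samples that the labels put in no group were left out.

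Libraries with fewer than 7000 symbols above 1 TPM were dropped (13 over the series), and the remaining libraries of a muscle were averaged. Each muscle then had 1 library in the main comparison. Genes with a mean above 1 TPM over the compared muscles were tested on log2(TPM + 1), a pseudocount of 1 TPM, with limma 3.58.1 in R 4.3.3 with an intensity trend, and p-values were Benjamini-Hochberg adjusted over all tested genes. Fold changes on this scale understate those of low genes. Single library measures were compared by two-sided exact permutation. The analysis was tested on simulated data, and Python 3.11.15 was used for tables.

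The gene lists were written from known functions. The members and lists were chosen with earlier results of these data known, and lists were described by counts and medians with no test. Some genes stand in more than 1 list. Named genes were the members of each list with the largest called fold changes (no list member was called), 24 reference genes (1 of which is not reported here), the study's own 3 lists, the called genes with the largest fold changes, and the 3 members of each theme with the smallest p. Alternatives were another pseudocount, other filters, all libraries, size factors, a model of 17 groups, the range of rat numbers, each muscle left out and a within-rat contrast, of which the last was fitted with no intensity trend.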

Additional observations from a re-analysis of the deposited data

Results flagged for a closer look

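Within an arm, 1 muscle lay far from the other 7 for 6 of 140 combinations of arm and gene or list. The measure was its gap to the nearest other muscle as a share of the whole range, on the log2(TPM + 1) scale, against Dixon's critical value for 8 samples, which chance passes in about 1 in 20 groups. The NoRepair muscle of rat 011, which had the high share of ribosomal RNA, held 243 TPM of Cdkn1a against 452 to 691 TPM in the others, and 131 TPM of Myog against 283 to 445 TPM. The MMG muscle of rat 107 held 645 TPM of Myog against 247 to 365 TPM, and that of rat 023 held 70.7 TPM of Snai1 against 26.9 to 38.7 TPM. The NoRepair muscle of rat 019 held 104.6 TPM of Myh3 against 156 to 217 TPM, and that of rat 020 held 6.91 TPM of Kcnk13 against 3.05 to 4.48 TPM.

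For Hsf2bp the log2 fold change at 7 DPI was larger than that at 3 DPI by 1.06 ± 0.20 (SE, adjusted p = 0.0453 in limma). Its means were 3.13 TPM in MMG and 1.62 TPM in NoRepair muscles at 7 DPI, and 4.18 and 5.76 TPM at 3 DPI, where the NoRepair group held 3 muscles.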

How the results depend on the processing

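Of 16 list medians, 13 stayed above 0 under every alternative. That of MHC class II was below 0 under size factors (-0.12), in the lower-numbered rats (-0.10) and without any 1 of 7 of the muscles, that of basement membrane under size factors (-0.0044, like that of MHC class II the same with the range added) and in the within-rat differences given at the end, and that of inflammatory mediators in the lower-numbered rats (-0.028). Counts of genes with adjusted p under 0.05 changed more. By adjusted p alone 9 genes passed where 1 was called with the fold limit. No filter on low values gave 0 called, a pseudocount of 0.1 TPM gave 5 by adjusted p, and size factors gave 0 called. The main comparison tested 116 macrophage, 142 proliferation and 148 matrix genes among its 10803. Keeping all libraries gave 138 called and 6689 of 10709 genes by adjusted p alone, with 93 macrophage, 132 proliferation and 107 matrix genes. Most of the genes tested passed under that setting. One model of 17 groups gave 10 called and 995 of 10803 by adjusted p alone, with 37 macrophage, 97 proliferation and 11 matrix genes. The matrix share there was below that of all genes. The rat-number range as a covariate gave 8 called and 952 of 10803 by adjusted p alone. Of these 952, 28 were macrophage, 101 proliferation and 13 matrix genes. The lower-numbered rats alone gave 0 and 0. The higher-numbered rats alone gave 130 called and 1513 of 10747 by adjusted p alone, with 59 macrophage, 68 proliferation and 21 matrix genes. The within-rat difference to the contralateral muscle gave 135 called and 1189 of 10803 by adjusted p alone. Of these 1189, 54 were macrophage, 65 proliferation and 21 matrix genes. Chosen after seeing the data, the same difference in the higher-numbered rats alone gave 49 called and 87 of 10803 by adjusted p alone. Of these 87, 15 were macrophage, 0 proliferation and 4 matrix genes. Size factors with the range, also chosen after seeing the data, gave 0 called and 35 of 10794 by adjusted p alone. Of these 35, 1 was a macrophage gene, 5 were proliferation and 2 matrix genes. The other choices made after seeing the data were the interaction with range and the contralateral muscle in the higher-numbered rats alone. Leaving out 1 muscle gave 0 to 27 called, 1 to 1021 by adjusted p, 0 to 37 macrophage, 0 to 66 proliferation and 0 to 11 matrix genes. The cause of these changes was not tested.

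With all libraries kept, where the all-gene median was 0.43, list medians moved to 0.37 for MHC class II, 0.60 for DNA replication, 0.57 for G1 genes, 0.63 for network collagens, 0.43 for basement membrane, 0.54 for elastic fibres and 0.66 for crosslinking. The basement membrane median was -0.056 in the within-rat difference and -0.046 in the same difference for the higher-numbered rats alone. All libraries gave 11 called genes in running rats and 10 in contralateral muscles. No paired analysis was possible because each rat belongs to 1 arm and the replicate numbers only name muscles. TPM keeps no depth, so no limit of detection was set.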
